A study of Mus musculus with 6 samples.

Results

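The 51 genes described here, which make up the core of the Wnt pathway in mouse cells, are the Wnt ligands, the Frizzled and Lrp receptors, the R-spondins, the secreted inhibitors of the Sfrp and Dkk families, beta-catenin, the Axins, the TCF/LEF factors and Sp5. They were chosen by gene symbol alone from the 20460 genes kept from the deposited table, with no measured value in the rule. In mouse embryonic stem cells 24 of them were abundant enough to test, and with retinoic acid (RA) 20 of the 24 changed, beside 63.6% of all genes tested. Among the 24, transcripts of the secreted inhibitor Sfrp5 and of the receptor Fzd2 rose furthest on the logarithmic scale of the test. Those of the inhibitor Sfrp4 and of the feedback gene Axin2 fell. The RNA came from J1 cells of strain 129S4/SvJae, grown on gelatin with LIF, a cytokine that supports self-renewal, though the labels do not say whether LIF stayed in the medium during the treatment. There were 3 lines: wild-type cells, cells with a scramble (control) short hairpin RNA or shRNA, and cells whose shRNA targets the arginine methyltransferase gene Carm1. Each was sampled after 48 h of ethanol vehicle and after 48 h of 1 µM RA. Each of the 6 combinations was represented by 1 library, nothing in the labels describes replicate cultures or says whether a line is a clone, and p-values therefore measure only the spread between these libraries.

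Wnt proteins are lipid-modified secreted ligands that bind a Frizzled receptor together with the co-receptor Lrp5 or Lrp6. Binding stops the Axin-based complex from degrading beta-catenin, which then acts with the TCF/LEF factors on target genes. Axin2 and Sp5 are widely used readouts of this branch, and both restrain it. In mouse embryonic stem cells the pathway favours self-renewal, in large part by relieving repression by Tcf7l1, and RA drives the same cells towards differentiation.

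Levels are the deposited FPKM, a read measure per length of transcript and per total of reads, so that levels can be compared between genes. FPKM hold no read counts. The step of the lowest values put the depth between about 26300000 and 34800000 reads per library, and precision for weak genes is limited by it. Carm1 itself, the shRNA target, stood at 8.49 (vehicle) and 6.73 (RA) FPKM in its shRNA line. The scramble line had 36.1 and 29.9 FPKM, and wild-type cells had 37.0 and 29.5 FPKM. All 8 listed stem cell markers exceeded a mean of 1 FPKM under either treatment. Their summed level was 4917 to 5227 FPKM with vehicle and 2678 to 4083 FPKM with RA. Of the stem cell markers 6 were lower in every RA library than in every vehicle library, beside 20.5% of all genes tested. Of 14 extraembryonic endoderm markers, 11 were higher in every RA library, beside 40.5% of all genes at or above a mean of 1 FPKM and 37.1% of those under it, and their sum went from 36.9 to 40.0 FPKM with vehicle to 144 to 172 FPKM with RA. Of 8 neural markers 3 were higher and 0 lower in every RA library. The shares over all genes are those given for the fibroblast list below. Among the 3, Nes was at 1.52 to 1.72 FPKM with vehicle and 5.23 to 7.45 FPKM with RA. Pax6 went from 1.57, 0.298 and 0.125 FPKM (wild-type, scramble, Carm1 shRNA) to 7.72, 2.60 and 0.749 FPKM. Sox1 went from 15.1, 10.4 and 7.91 FPKM to 33.0, 13.8 and 9.57 FPKM. Both were higher with RA in each line but overlapped between the treatments. Neurog2 was at 0 throughout. The neural sum, 121 to 142 FPKM with vehicle and 98.1 to 135 FPKM with RA, was mostly Tubb3, at 108 to 128 FPKM and 65.9 to 117 FPKM. The 7 primitive streak and mesoderm markers in the table summed to 2.52 to 4.83 FPKM with vehicle and 2.59 to 6.20 FPKM with RA. Of 9 fibroblast markers 6 were higher and 1 lower in every RA library. Over all genes those shares were 40.5% and 20.5% at or above a mean of 1 FPKM and 37.1% and 4.22% under it. The fibroblast list summed to 1.71 to 2.27 FPKM with vehicle and 5.18 to 8.80 FPKM with RA, with Postn at 0 throughout. The part of a changing cell mixture in the results below was not tested, and in bulk RNA fewer cells of a type and less RNA per cell cannot be told apart.

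Of the 51 genes, 24 reached a mean of 1 FPKM over the 6 libraries and were tested, and 27 lay under it and are given apart. The test was limma on log2(FPKM + 1) with the line as a block, fitted to all 11227 genes that reached this mean, with Benjamini-Hochberg adjustment. On this scale 15 of the 24 rose with RA and 5 fell, and 4 did not pass. Among all genes tested 42.9% rose and 20.7% fell, 63.6% in all. The median change of the 24 was 0.55 (log2), beside 0.14 for all genes tested, and 0.40 beside 0.0015 after median-of-ratios scaling of the libraries. That scaling moved the counts over all genes from 4816 higher and 2325 lower to 3662 and 3631, and those of the 24 to 14 and 7. Quantile normalization gave 2992 and 3847 over all genes, and 13 and 6 of the 24. Rspo1, Wnt5b, Fzd2, Fzd8 and Dkk3 reached the mean only through their RA libraries, so the share that rose is not a property of the whole gene set. Over all 51 genes, every RA library lay above every vehicle library for 25, every RA library lay below for 7, and the treatments overlapped for 19. Of the 24 tested, 13 lay wholly above and 4 wholly below, beside 40.5% and 20.5% of all genes tested. Of the 27 under the mean, 12 lay wholly above and 3 wholly below. Over all genes with a mean above 0 and under 1 FPKM those shares were 37.1% and 4.22%. Nearest to the mean of 1 FPKM were Rspo1 (mean 1.13 FPKM) and Fzd8 (1.35 FPKM) above it and Wnt6 (0.756 FPKM) and Wnt9a (0.709 FPKM) below it.

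**Figure D1:**
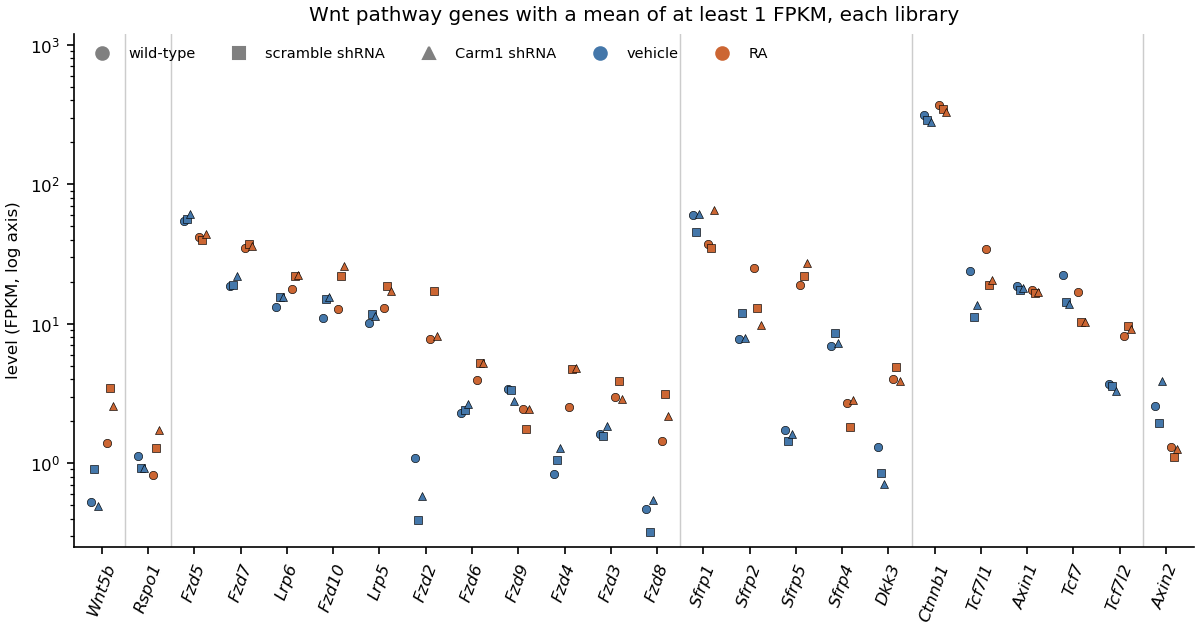
FPKM of each library on a log axis for the 24 tested genes, grouped by role from ligands to feedback targets, with the line shown by marker and the treatment by colour. Ctnnb1 stands at 280 to 367 FPKM, and Fzd2, Sfrp5 and Dkk3 show the RA libraries clear of the vehicle libraries.

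The start regions of 4 of these genes are shown. They either hold an exact TCF/LEF core, ATCAAAG, or belong to the tested gene with the largest rise in log2(FPKM + 1). Each runs 5′ to 3′ on the gene's strand from 250 bases before to 50 bases after an annotated RefSeq start (build GRCm38.p6), and capitals mark the core or its reverse complement. RefSeq starts were on hand for 34 of the 51 genes, 43 starts in all, and 3 of the 43 held the core, beside 3.73% of 32851 starts of all genes. None held a pair of RA-receptor hexamers (AGGTCA or AGTTCA or GGGTCA or GGTTCA, both in 1 orientation, on either strand, 1, 2 or 5 bases apart), beside 0.588% of all starts. A match is a description of these letters and not a binding site, and the lack of one says nothing of sites elsewhere.
Sp5, chr2:70474673-70474972, plus strand, core 104 bases before the start: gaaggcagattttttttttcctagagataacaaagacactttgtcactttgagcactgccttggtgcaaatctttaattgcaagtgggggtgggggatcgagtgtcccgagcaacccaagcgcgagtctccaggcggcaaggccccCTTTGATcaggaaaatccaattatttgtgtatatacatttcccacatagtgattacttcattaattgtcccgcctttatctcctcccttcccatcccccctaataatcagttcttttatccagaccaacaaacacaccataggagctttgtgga
Wnt5b, chr6:119449337-119449636, minus strand, core 71 bases before the start: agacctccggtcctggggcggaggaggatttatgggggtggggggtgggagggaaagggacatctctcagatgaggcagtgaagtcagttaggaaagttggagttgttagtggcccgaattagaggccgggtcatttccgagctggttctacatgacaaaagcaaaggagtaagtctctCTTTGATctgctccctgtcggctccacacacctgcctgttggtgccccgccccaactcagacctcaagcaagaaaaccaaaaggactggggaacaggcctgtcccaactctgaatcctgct
Wnt11, chr7:98834862-98835161, plus strand, core 51 bases before the start: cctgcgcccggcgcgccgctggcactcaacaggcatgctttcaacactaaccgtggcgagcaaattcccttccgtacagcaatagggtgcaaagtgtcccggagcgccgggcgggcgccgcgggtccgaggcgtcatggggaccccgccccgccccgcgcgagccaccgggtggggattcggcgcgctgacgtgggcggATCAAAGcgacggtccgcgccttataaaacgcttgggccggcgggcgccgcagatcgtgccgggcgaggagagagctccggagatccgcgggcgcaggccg
Sfrp5, chr19:42202203-42202502, minus strand, no core: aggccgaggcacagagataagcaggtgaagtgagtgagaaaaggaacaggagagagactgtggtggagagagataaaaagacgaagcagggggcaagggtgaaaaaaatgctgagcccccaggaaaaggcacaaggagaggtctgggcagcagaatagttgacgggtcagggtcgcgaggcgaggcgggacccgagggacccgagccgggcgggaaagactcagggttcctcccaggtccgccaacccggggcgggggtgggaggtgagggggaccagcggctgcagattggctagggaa
The 3 genes with a core did not share a direction with RA. Wnt5b was higher in every RA library, Wnt11 overlapped between the treatments, and Sp5 was lower in every RA library. Wnt5b and Wnt11 have other annotated starts without the core, and the FPKM do not tell starts apart.

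Wnt ligand transcripts were scarce in these cells, and RA changed which of them led. The 19 ligands summed to 2.91, 4.06 and 3.74 FPKM with vehicle and to 5.70, 8.79 and 8.03 FPKM with RA, where values by line here and below run in the order wild-type, scramble, Carm1 shRNA. Wnt6 had the highest level of the 19 in every vehicle library, at 19.2%, 33.6% and 37.3% of the sum. With RA the leading ligand was Wnt5b in every line, at 24.6%, 39.2% and 31.9% of the sum. Wnt5b (chr6:119382549-119494365, build mm9 as for all gene spans here), which acts mainly outside the beta-catenin branch, was the only ligand that reached the mean of 1 FPKM. Its level was 0.528, 0.913 and 0.494 FPKM with vehicle and 1.40, 3.44 and 2.56 FPKM with RA. All RA libraries lay above all vehicle libraries, and the rise was least in the wild-type line. The change was 1.04 ± 0.13 (SE) in log2(FPKM + 1) units (limma, adjusted p = 0.00235). Wnt5b was tested only because of its RA levels, with a mean of 0.645 FPKM with vehicle and 2.47 FPKM with RA. Its rise is therefore not independent of the filter. The annotated span of Wnt5b, introns included, holds the whole of Fbxl14, 4219 bases at a mean of 20.6 FPKM. Whether exons of these genes overlap was not tested. Where exons do overlap, reads cannot be assigned without strand.

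Among the other 18 ligands, 8 were higher in every RA library than in every vehicle library and 2 were lower. Over all genes under a mean of 1 FPKM those shares were 37.1% and 4.22%. These ligands had no test. Wnt8a, a beta-catenin branch ligand of the early embryo, was 0.0936, 0.0531 and 0.0390 FPKM with vehicle and 1.03, 1.41 and 1.55 FPKM with RA. At the depths above this is about 2.1 to 5.3 reads against 62.6 to 89.7 reads. The 3 RA libraries stood clear of the vehicle libraries, and Wnt8a was the second ligand by level in 2 of them. Wnt9a went from 0.256, 0.193 and 0.208 FPKM to 1.10, 1.22 and 1.28 FPKM, with the lines close together under either treatment. Wnt2 went from at most 0.0141 FPKM, about 1.0 read, to 0.135, 0.254 and 0.229 FPKM. Wnt5a, a ligand of the non-canonical branches, rested on lower values, at 0.0288, 0.0587 and 0.0508 FPKM with vehicle and 0.128, 0.152 and 0.184 FPKM with RA. In these 4 ligands no RA library overlapped a vehicle library. Wnt1, Wnt2b, Wnt3 and Wnt9b had the same order, at no more than 0.305 FPKM in any library. For Wnt1 it rested on about 0 to 1.1 reads against 2.3 to 5.4 reads. For Wnt9b it rested on 0 reads against about 0.9 to 1.9 reads.

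Wnt3a and Wnt10a were lower in every RA library. Wnt3a, the ligand often added to stem cell cultures as a protein, was 0.106, 0.103 and 0.0985 FPKM with vehicle and 0.0704, 0.0743 and 0.0199 FPKM with RA, which is about 7.5 to 9.4 reads against 1.8 to 6.8 reads. Wnt10a was 0.183, 0.436 and 0.237 FPKM with vehicle and 0.109, 0.116 and 0.0759 FPKM with RA. Wnt6 fell short of this order only by 1 library, with 0.558, 1.37 and 1.40 FPKM with vehicle and 0.263, 0.623 and 0.329 FPKM with RA. In each line its RA level was the lower one, but the RA level of the scramble line exceeded the vehicle level of the wild-type line. Wnt11, an activator of non-canonical signalling, overlapped between treatments and was highest in the Carm1 shRNA line under both (0.817 and 0.873 FPKM, against 0.352 to 0.506 FPKM in the other 4 libraries). Of the remaining ligands Wnt4, Wnt7a, Wnt7b, Wnt8b, Wnt10b and Wnt16 overlapped too, at no more than 0.243 FPKM.

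R-spondins, which raise Wnt sensitivity by protecting Frizzled receptors from degradation, were also weak. Rspo1 was 1.12, 0.924 and 0.927 FPKM with vehicle and 0.820, 1.28 and 1.73 FPKM with RA. It was lower with RA in the wild-type line and higher in the others, and it did not pass (0.18 ± 0.14, limma adjusted p = 0.324). Its estimate was -0.37 after quantile normalization, and it passed without the wild-type line (0.37 ± 0.10). Rspo2 went from 0.0206, 0.0129 and 0.0436 FPKM to 0.256, 0.844 and 1.37 FPKM, about 1.1 to 4.6 reads against 29.7 to 152 reads. Every RA library lay above every vehicle library, with the wild-type line lowest under RA. Rspo3 had the same order at 0.0392 to 0.0760 FPKM with vehicle and 0.179 to 0.315 FPKM with RA, and Rspo4 overlapped.

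**Figure D2:**
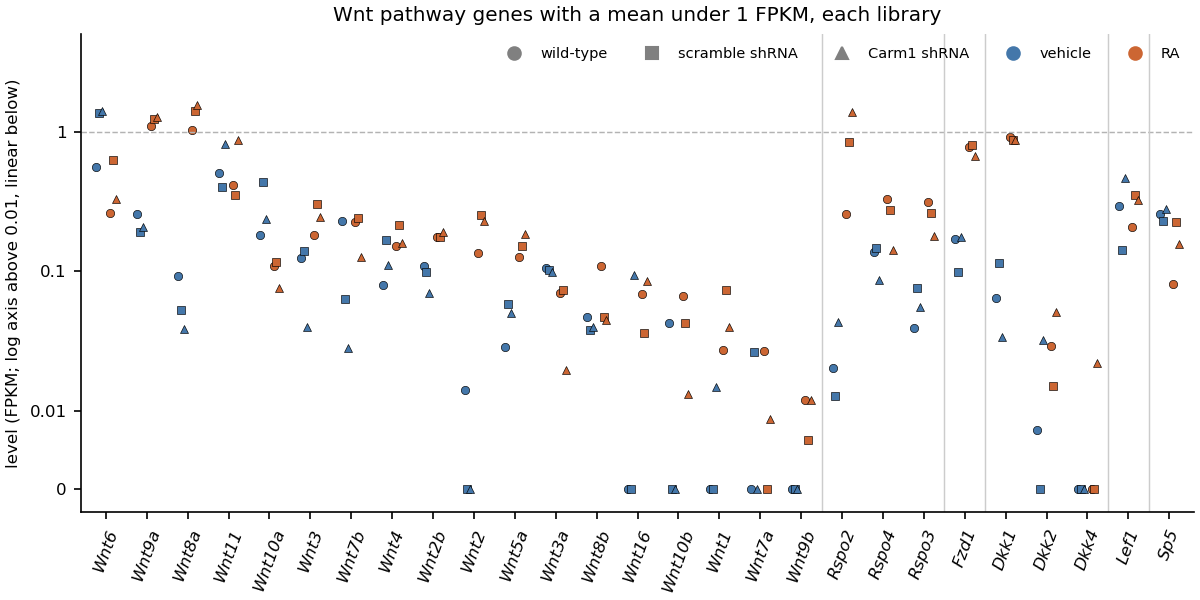
FPKM of each library for the 27 genes with a mean under 1 FPKM, on an axis that is logarithmic above 0.01 FPKM and linear below, with the line shown by marker, the treatment by colour and 1 FPKM by the dashed line. Wnt8a, Wnt9a, Fzd1 and Dkk1 show their RA libraries in tight groups above the vehicle libraries, and 8 genes are listed at 0 in at least 1 library.

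Receptor transcripts were far more abundant than ligand transcripts, and the mixture of Frizzled receptors shifted with RA. Of the 11 receptors and co-receptors tested 9 rose and 2 fell, beside 42.9% and 20.7% of all genes tested, and Fzd2 and Fzd8 were tested only because of their RA levels. The 10 Frizzled genes summed to 94.4, 99.4 and 108 FPKM with vehicle and 111, 136 and 132 FPKM with RA. Fzd5 made up 58.0%, 56.4% and 56.2% of that sum with vehicle and 37.5%, 29.3% and 33.2% with RA. Fzd7 made up 19.9%, 19.1% and 20.4% with vehicle and 31.4%, 27.5% and 27.2% with RA. Fzd5 (chr1:64777132-64784324), the leading Frizzled gene here, was 54.7, 56.1 and 60.9 FPKM with vehicle and 41.7, 39.7 and 43.7 FPKM with RA, so that the treatments did not overlap. It changed by -0.45 ± 0.06 in log2 units (limma adjusted p = 0.00308). Fzd7 (chr1:59538991-59543799), a main Wnt receptor of pluripotent cells, was 18.8, 19.0 and 22.1 FPKM with vehicle and 35.0, 37.3 and 35.8 FPKM with RA. The RA libraries were all higher and close to each other, and the change was 0.83 ± 0.08 (limma adjusted p = 0.00110). Fzd5 remained above Fzd7 in every library.

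Fzd2 had the largest rise among the receptors and the widest spread between lines. Fzd2 (chr11:102465745-102469372), a receptor that can transmit Wnt5a signals, was 1.08, 0.391 and 0.577 FPKM with vehicle and 7.70, 17.3 and 8.20 FPKM with RA. The ratio of RA to vehicle was 7.13 in the wild-type, 44.1 in the scramble and 14.2 in the Carm1 shRNA line. All RA libraries were higher, and the change was 2.77 ± 0.31 (limma adjusted p = 0.00158). Fzd4, the receptor for norrin as well as for Wnt ligands, rose from 0.836, 1.05 and 1.29 FPKM to 2.54, 4.72 and 4.79 FPKM (1.26 ± 0.12). Fzd8 rose from 0.469, 0.321 and 0.540 FPKM to 1.44, 3.13 and 2.18 FPKM (1.14 ± 0.18). Fzd6, which can restrain beta-catenin signalling, rose from 2.29, 2.40 and 2.65 FPKM to 3.93, 5.24 and 5.27 FPKM (0.75 ± 0.08). Fzd3, a polarity receptor, rose from between 1.56 and 1.84 FPKM to between 2.88 and 3.89 FPKM (0.67 ± 0.11). For Fzd4 and these 3 receptors, every RA library lay above every vehicle library. Fzd3 no longer passed after quantile normalization (limma adjusted p = 0.123, with an estimate of 0.20). Fzd1 was under the mean of 1 FPKM, at 0.0991 to 0.176 FPKM with vehicle and 0.782, 0.803 and 0.667 FPKM with RA.

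Fzd10 and Fzd9 passed narrowly. Fzd10 was 11.1, 15.1 and 15.6 FPKM with vehicle and 12.8, 21.8 and 25.7 FPKM with RA, and the wild-type RA library lay below the other lines' vehicle libraries. The change was 0.46 ± 0.11 (limma adjusted p = 0.0150), which did not pass without the scramble line, without the Carm1 shRNA line, or after quantile normalization. Fzd9 fell from 3.38, 3.35 and 2.80 FPKM to 2.42, 1.75 and 2.46 FPKM (-0.38 ± 0.11, limma adjusted p = 0.0305), and this ended without the scramble line (-0.24 ± 0.10). The co-receptors rose by less. Lrp6 went from 13.1, 15.6 and 15.5 FPKM to 17.8, 22.1 and 22.3 FPKM (0.46 ± 0.06), and Lrp5 from 10.1, 11.8 and 11.3 FPKM to 12.9, 18.6 and 17.2 FPKM (0.50 ± 0.08). In both genes each RA library exceeded every vehicle library.

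**Figure D3:**
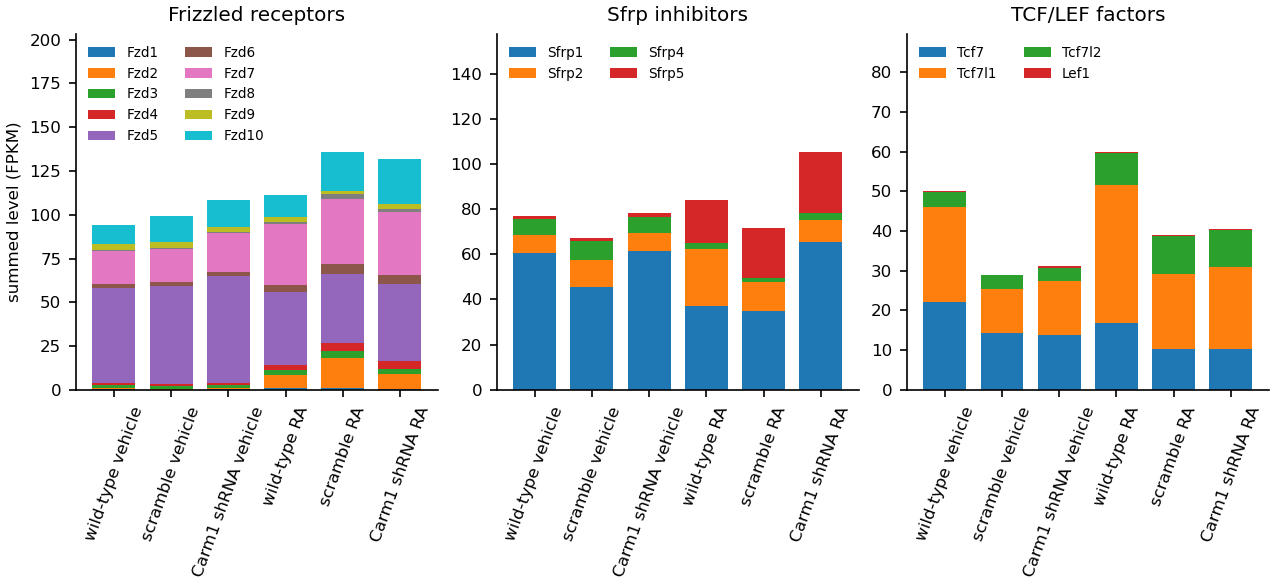
Stacked FPKM of the Frizzled, Sfrp and TCF/LEF genes in each of the 6 libraries, with vehicle on the left and RA on the right of each panel and each colour standing for 1 gene. The Fzd5 share shrinks with RA from 56.2% to 58.0% down to 29.3% to 37.5%, and Sfrp5 grows from about 2% to between 22.5% and 30.6% of its family.

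The secreted inhibitors moved in opposite directions. Sfrp proteins bind Wnt ligands or Frizzled receptors outside the cell, and Dkk proteins act mainly by binding Lrp5 and Lrp6. Sfrp5 (chr19:42272461-42276742), expressed in foregut and visceral endoderm of mouse embryos, had the largest rise among the 24 tested genes on the log2(FPKM + 1) scale. Its level was 1.71, 1.45 and 1.62 FPKM with vehicle and 18.9, 22.0 and 27.0 FPKM with RA. The ratio of RA to vehicle was 11.0, 15.1 and 16.7, and the groups were far apart. The change was 3.17 ± 0.12 (limma adjusted p = 0.000191). The endoderm markers summed above moved the same way, and their part in this rise was not tested. Dkk3, a divergent Dkk family member whose action on Wnt signalling varies with context, rose from 1.31, 0.848 and 0.703 FPKM to 4.04, 4.89 and 3.88 FPKM (1.44 ± 0.12). Sfrp4 fell from 6.96, 8.52 and 7.26 FPKM to 2.69, 1.81 and 2.85 FPKM, with no overlap (-1.32 ± 0.15, limma adjusted p = 0.00159). Only 3 of the 24 genes rose at least 2-fold in each line as (FPKM + 1), namely Sfrp5, Fzd2 and Dkk3. Of these, Fzd2 and Dkk3 were tested only because of their RA levels. By as much, 1 fell, Sfrp4. Over all genes tested those shares were 5.22% and 0.802%.

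Sfrp1, the most abundant inhibitor in every library, and Sfrp2 did not pass, and their lines differed. Sfrp1 (chr8:24521974-24560104) was 60.7, 45.5 and 61.3 FPKM with vehicle and 37.2, 34.9 and 65.4 FPKM with RA. The level was lower with RA in the wild-type and scramble lines and not in the Carm1 shRNA line. The estimate over the lines was -0.32 ± 0.15 (limma adjusted p = 0.117), and it passed without the Carm1 shRNA line (-0.53 ± 0.12) and after median-of-ratios scaling (-0.48 ± 0.16). Sfrp2 (chr3:83570243-83578236) was 7.82, 11.9 and 7.92 FPKM with vehicle and 25.1, 13.0 and 9.79 FPKM with RA. It was higher with RA in each line, mostly in the wild-type one, with an estimate of 0.65 ± 0.29 (limma adjusted p = 0.101). Dkk1, the classic Lrp6 antagonist and itself a Wnt target, lay under the mean of 1 FPKM. Its level was 0.0642, 0.115 and 0.0340 FPKM with vehicle and 0.919, 0.875 and 0.864 FPKM with RA, about 2.6 to 7.4 reads against 65.6 to 77.7 reads. The 3 RA libraries were nearly equal and far above the vehicle libraries. Dkk2 and Dkk4 did not exceed 0.0517 FPKM in any library.

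Beta-catenin and Axin1 changed little, whereas the TCF/LEF factors were rebalanced. Ctnnb1 (chr9:120842518-120869625), which encodes beta-catenin, was the most abundant of the 51 genes, at 315, 291 and 280 FPKM with vehicle and 367, 349 and 330 FPKM with RA. It rose by 0.24 ± 0.06 (limma adjusted p = 0.0191), but the estimate was 0.08 (adjusted p = 0.307) after median-of-ratios scaling, and it did not pass without the scramble line or without the Carm1 shRNA line. Axin1, the scaffold of the destruction complex, was 17.4 to 18.6 FPKM with vehicle and 16.5 to 17.4 FPKM with RA. It did not pass (-0.08 ± 0.06, limma adjusted p = 0.275), and it was called lower under each rescaling, with -0.24 ± 0.06 by median of ratios and -0.24 ± 0.06 by quantiles.

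Tcf7l2 and Tcf7l1 rose and Tcf7 fell. Tcf7l2 (chr19:55816300-56008145), which encodes TCF4, went from 3.68, 3.59 and 3.30 FPKM to 8.11, 9.63 and 9.23 FPKM, with tight groups far apart (1.14 ± 0.08, limma adjusted p = 0.000674). Tcf7l1 (chr6:72576374-72738950), the TCF3 repressor of pluripotency genes, went from 24.0, 11.1 and 13.5 FPKM to 34.6, 18.9 and 20.6 FPKM. The treatments overlapped because the wild-type line was high under both, and within each line RA was higher (0.60 ± 0.07, limma adjusted p = 0.00187). Tcf7 (chr11:52066106-52095752), which encodes the mostly activating TCF1, went from 22.2, 14.2 and 13.8 FPKM to 16.9, 10.3 and 10.3 FPKM. It was lower with RA in each line by nearly the same amount (-0.40 ± 0.06, limma adjusted p = 0.00398). As shares of the summed TCF/LEF level, Tcf7 went from 44.2%, 49.0% and 44.3% to 28.3%, 26.2% and 25.5%, and Tcf7l2 from 7.35%, 12.4% and 10.6% to 13.6%, 24.6% and 22.8%. Lef1 stayed between 0.143 and 0.468 FPKM and overlapped between the treatments.

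**Figure D4:**
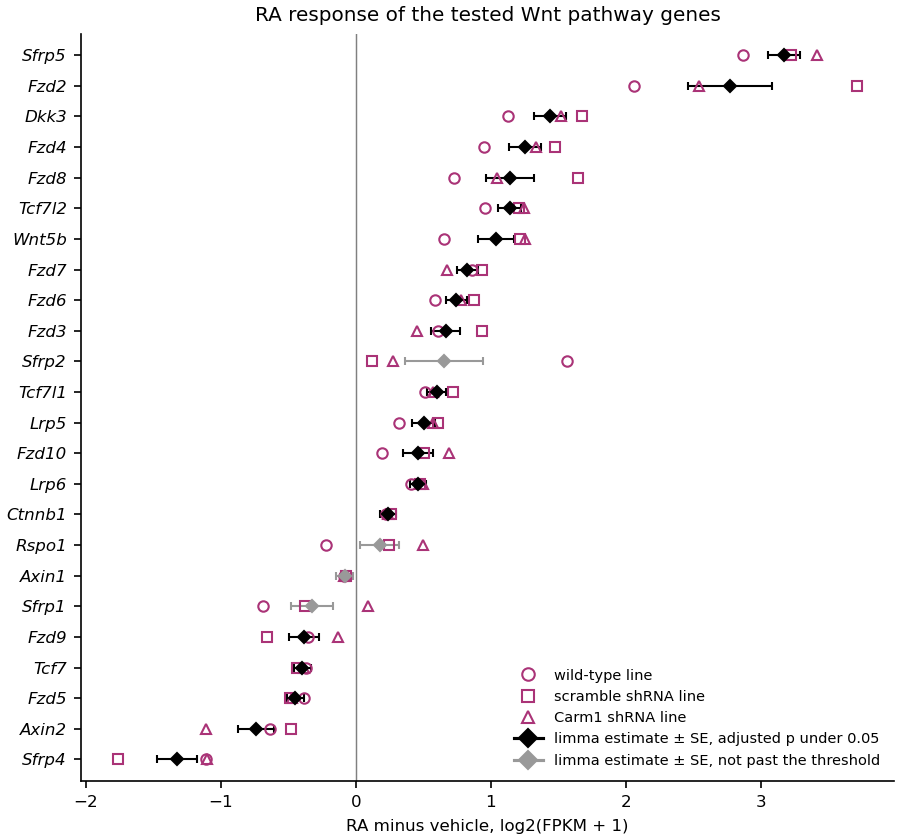
RA minus vehicle on the log2(FPKM + 1) scale for the 24 tested genes, ordered by the estimate, with open markers for each line and diamonds with SE bars for limma, black where the adjusted p is under 0.05. Estimates run from -1.32 for Sfrp4 to 3.17 for Sfrp5, and the open markers lie on either side of 0 for Sfrp1 and Rspo1.

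Axin2 fell with RA, and Sp5 was too weak to test. Axin2 (chr11:108781663-108812095), a direct beta-catenin target and inhibitor of the pathway, was 2.58, 1.94 and 3.86 FPKM with vehicle and 1.31, 1.11 and 1.25 FPKM with RA. The lines differed with vehicle and converged with RA, and the treatments did not overlap. The change was -0.74 ± 0.13 (limma adjusted p = 0.00619), and it passed under every alternative in which it was tested. Sp5, a zinc finger repressor induced by Wnt signalling, whose start region with its TCF/LEF core is printed above, was 0.258, 0.230 and 0.280 FPKM with vehicle and 0.0810, 0.226 and 0.156 FPKM with RA. It was lower in each RA library than in each vehicle library, but in the scramble line the values were nearly equal, at about 12.7 and 14.6 reads by the estimated depth. Wnt-induced antagonists did not all share this direction. Dkk1, described above, and Nkd1 (0.374 to 0.568 FPKM with vehicle and 1.03 to 1.27 FPKM with RA) were higher in every RA library. The receptor turnover gene Znrf3, abundant enough to test, was lower with RA in each line but did not pass (-0.18 ± 0.06, limma adjusted p = 0.0537).

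Other genes of the pathway were taken from lists by role. Of 74 such genes measured, 59 could be tested, 36 rose and 4 fell (Ctbp2, Celsr3, Lgr4 and Tle4), beside 42.9% and 20.7% of all genes, with a median of 0.31 beside 0.14 for all genes. After median-of-ratios scaling 28 rose and 11 fell, beside 3662 and 3631 of all 11227 genes. Wls, the carrier that brings Wnt proteins to the cell surface, went from 1.66, 1.10 and 1.96 FPKM to 15.7, 31.5 and 27.3 FPKM (3.29 ± 0.24, limma adjusted p = 0.000684). Porcn, the acyltransferase that lipid-modifies Wnt proteins, went from 13.8, 12.1 and 13.1 FPKM to 63.4, 25.5 and 32.7 FPKM (1.47 ± 0.22), with the wild-type line highest under RA. The co-receptor Gpc4 (1.38 ± 0.07), the Dishevelled partner Dact1 (1.67 ± 0.17), the polarity gene Prickle1 (1.54 ± 0.15), the beta-catenin cofactor Bcl9l (1.37 ± 0.16) and the Groucho family gene Tle6 (2.58 ± 0.17) also rose. The corepressor Ctbp2 fell from 102, 98.1 and 94.9 FPKM to 44.7, 26.9 and 37.8 FPKM (-1.43 ± 0.14). The ligand-inactivating enzyme gene Notum did not pass (limma adjusted p = 0.536), at 11.6 to 19.4 FPKM with vehicle and 7.66 to 27.7 FPKM with RA.

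Textbook beta-catenin targets outside the 51 genes did not share a direction. Of 9 tested 4 rose (Apcdd1, Cdx1, Id2 and Tnfrsf19) and 2 fell (Ccnd1 and Myc), close to the 42.9% and 20.7% of all genes, and 3 rose and 3 fell after median-of-ratios scaling. Tnfrsf19, a receptor of the TNF family, went from 1.67, 3.20 and 1.64 FPKM to 10.5, 20.1 and 14.7 FPKM, with no overlap (2.33 ± 0.10). The other rises were 2.63 ± 0.17 for Id2, 2.61 ± 0.10 for Cdx1 and only 0.20 ± 0.07 for Apcdd1. The falls were -1.54 ± 0.07 for Myc and -1.14 ± 0.09 for Ccnd1. Myc went from 47.6, 81.9 and 73.3 FPKM to 16.3, 25.4 and 25.5 FPKM. Of 9 more under a mean of 1 FPKM, 4 were higher in every RA library (Cdx2, Nkd1, Rnf43 and Sp8) and 1 was lower (Mixl1), beside 37.1% and 4.22% of all such genes. Sp8 was at most 0.0282 FPKM with vehicle and 0.719 to 0.956 FPKM with RA, whereas brachyury (gene T), the primitive streak gene, did not exceed 0.177 FPKM in any library. Of 6 pluripotency genes known to be repressed by Tcf7l1, 1 rose (Tbx3), 2 fell (Esrrb and Nr5a2) and 3 did not pass. Over all genes tested 42.9% rose and 20.7% fell. After median-of-ratios scaling 1 of the 6 rose and 3 fell, beside 3662 and 3631 of all 11227 genes.

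Differences between the lines were sought next, to see whether the Carm1 shRNA line carried its own level of Wnt pathway genes. Over both treatments, 0 of the 24 genes passed between the Carm1 shRNA and scramble lines (limma), beside 0.0178% of all genes tested, and 1 had an unadjusted p under 0.05. That gene was Sfrp1, at 61.3 against 45.5 FPKM with vehicle and 65.4 against 34.9 FPKM with RA (0.66 ± 0.19, limma adjusted p = 0.335). Axin2 was 3.86 against 1.94 FPKM with vehicle and 1.25 against 1.11 FPKM with RA (0.41 ± 0.16, limma adjusted p = 0.473). No gene of the 24 passed under any alternative run. Only 2 of all 11227 genes passed in this comparison, so the count of 0 does not show that the lines were alike.

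The wild-type line stood apart from both shRNA lines in Tcf7 and Tcf7l1, and not in Tcf7l2, whose differences of 0.10 ± 0.10 (scramble) and 0.02 ± 0.10 (Carm1 shRNA) did not pass (limma adjusted p = 0.611 and 0.908). Both genes were higher in it under both treatments, with the levels given above. The scramble line differed from it by -0.64 ± 0.08 for Tcf7 (limma adjusted p = 0.0343) and -0.94 ± 0.09 for Tcf7l1 (limma adjusted p = 0.0243). These were 2 of 24 genes lower, beside 1.04% of all genes, and 0 were higher, beside 0.748%, with 5 higher at an unadjusted p under 0.05. The Carm1 shRNA line differed from the wild-type line by -0.65 ± 0.08 for Tcf7 and -0.75 ± 0.09 for Tcf7l1 (limma adjusted p = 0.0224 for each), and by 0.71 ± 0.13 for Fzd10 (limma adjusted p = 0.0493). These were 2 genes lower and 1 higher of 24, beside 2.76% and 2.92% of all genes, 5.68% in all. Both comparisons use the same 2 wild-type libraries. The Tcf7 and Tcf7l1 calls ended without a filter on low values. The Tcf7 call against the scramble line also ended with a pseudocount of 0.1, after quantile normalization and without the Carm1 shRNA line, and the calls against the Carm1 shRNA line ended without the scramble line.

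The RA responses were then compared between the Carm1 shRNA line and the control lines. No gene of the 24 passed (limma, 0 of 11227 over all genes, 0%, or 1 over all genes and 0 of the 24 with limma's trend), and 2 had an unadjusted p under 0.05, at 1 residual degree of freedom before moderation. Sfrp1 changed by 0.09 in the Carm1 shRNA line against -0.69 in the wild-type and -0.37 in the scramble line, a difference of 0.63 ± 0.20 (limma adjusted p = 1.00). Axin2 changed by -1.11 against -0.63 and -0.48, a difference of -0.55 ± 0.17 (limma adjusted p = 1.00). The controls themselves differed for other genes, with Sfrp2 at 1.57 in the wild-type and 0.12 in the scramble line and Fzd2 at 2.07 and 3.71. By size, 0 of the 24 genes lay at least 2-fold from both control lines in the Carm1 shRNA line with either treatment, beside 0.169% of all genes with vehicle and 0.312% with RA. The other lines in that place also gave 0 of the 24, beside 0.606% (vehicle) and 0.864% (RA) of all genes for the wild-type line and 0.0178% and 0.0713% for the scramble line. Of the 24, 1 gene lay at least 1.5-fold from both with RA, Sfrp1, beside 1.87% of all genes. The wild-type line in that place gave 5 of the 24 with RA (Tcf7, Tcf7l1, Sfrp2, Fzd10 and Fzd4), beside 4.28%, and the scramble line gave 1 (Fzd2), beside 0.9%.

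**Figure D5:**
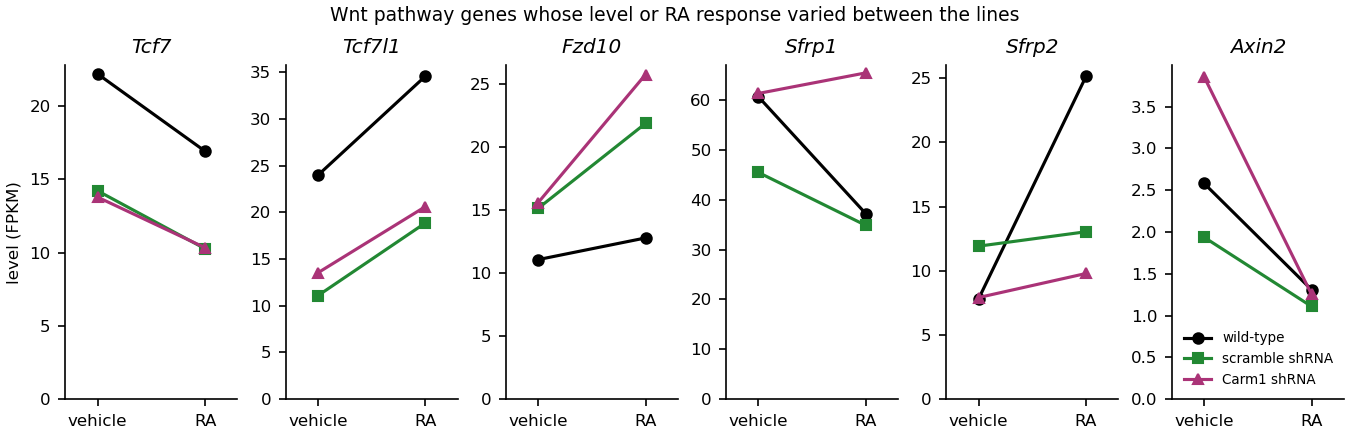
FPKM with vehicle and with RA in each line for Tcf7, Tcf7l1, Fzd10, Sfrp1, Sfrp2 and Axin2, 1 library per point, with each axis starting at 0 FPKM. The wild-type line lies above both shRNA lines for Tcf7 and Tcf7l1, and Sfrp1 in the Carm1 shRNA line goes from 61.3 to 65.4 FPKM where both other lines decline.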

How the data were processed

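The deposited values are FPKM, 1 column per library of single-end reads. The submitters' processing notes name TopHat2, Cufflinks and build mm9, with versions, strand setting and scaling between libraries not given in the sources used here, and headers of other sheets call the values RPKM. Other sheets of the deposited workbook hold rearranged copies and were not used. Rows with a failed estimate (2) were left out. Repeated symbols kept the row with the highest mean, which left 20460 genes, and no symbol of the 51 was repeated. Starts were raised by 1 to count from 1. Genes whose mean reached 1 FPKM were tested on log2(FPKM + 1), which understates changes of low genes, with limma 3.58.1 in R 4.3.3 (line plus treatment, 2 residual degrees of freedom before moderation, Benjamini-Hochberg threshold 0.05). The fit was tested on simulated data. The line was the block because each line was measured under both treatments, and deviations from the treatment means correlated at 0.476 to 0.607 within a line. An exact sign-flip test of 3 pairs cannot go below p = 0.25 and was not used. The comparison of the Carm1 shRNA line with the wild-type line was added after seeing the data. Depth was estimated from the step of low FPKM with GENCODE transcript lengths for 41 of the 51 genes. Any gene of the 51 could be named, and of the other pathway and target lists the 12 with the largest change that passed with 1 sign in all 3 lines, besides marker genes and those named beside a small count. Notum, Nkd1, Znrf3, Sp8 and T were named after their values were seen. The genes and lists were chosen with earlier results of these data known. Alternatives were the pseudocount (0.1), the filter (none, or 5 FPKM), the scaling, limma's trend, each line left out, no block, and a 1.5-fold limit.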

Additional observations from a re-analysis of the deposited data

Results flagged for a closer look

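Of the 24 tested genes, 2 had a line whose RA change had the opposite sign to both other lines. Sfrp1 changed by 0.0925 (log2) in the Carm1 shRNA line, against -0.691 in the wild-type and -0.374 in the scramble line, and the test of this difference did not pass (limma adjusted p = 1.00). Rspo1 changed by -0.217 in the wild-type line, against 0.244 in the scramble and 0.502 in the Carm1 shRNA line, and this difference was not tested. Each value rests on 1 pair of libraries.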

How the results depend on the processing

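The calls for 14 of the 20 RA-responsive genes held under every alternative in which the gene was tested (Axin2, Dkk3, Fzd2, Fzd4, Fzd5, Fzd6, Fzd7, Fzd8, Lrp5, Lrp6, Sfrp4, Sfrp5, Tcf7l2 and Wnt5b). Only Rspo1 changed sign, to -0.37 after quantile normalization. The counts of 15 higher and 5 lower became 23 higher without a filter, where all 51 genes were tested. At a mean of 5 FPKM, where 15 were tested, they were 9 higher and 3 lower. Over all genes 63.6% passed in either direction in the main fit, 49% without a filter and 65.3% at 5 FPKM. The counts of the 24 ranged from 13 to 16 higher and 4 to 6 lower with a line left out. Over all genes 62.2% passed without the wild-type, 42.7% without the scramble and 48.5% without the Carm1 shRNA line. Without the replicate block 13 rose and 4 fell, beside 50.8% of all genes in either direction, and the calls for Tcf7, Tcf7l1 and Fzd10 ended. The Fzd9 call also ended without a filter. For the scramble against the wild-type line, the 2 lower genes became 1 with a pseudocount of 0.1 and 1 after quantile normalization. They became 0 without a filter and 1 without the Carm1 shRNA line, and the 0 higher became 1 with limma's trend. Over all genes 1.79% passed in the main fit, 0.57% with that pseudocount and 0.811% after quantile normalization. The share was 0.0406% without a filter, 0.837% without the Carm1 shRNA line and 7.6% with the trend. For the Carm1 shRNA against the wild-type line, the 1 higher gene became 0 with a pseudocount of 0.1 and after quantile normalization. It also became 0 without a filter and without the scramble line, and the 2 lower became 0 in these last 2. Over all genes 5.68% passed in the main fit, 3.62% with that pseudocount and 4.61% after quantile normalization. The share was 0.0754% without a filter and 0.258% without the scramble line. The count of genes at least 2-fold from both controls with RA, 0, was 1 at 1.5-fold, and 0 against the scramble line alone and 1 against the wild-type line alone. The causes were not tested beyond the number of genes or libraries in each setting. Genes under about 0.1 FPKM rest on few reads, which limits their order.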
